A study of Mus musculus with 6 samples.

Results

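The lysosome is the acidic compartment in which a cell breaks down proteins, lipids and sugars, and autophagy is the route that brings the cell's own material to it. Described here are 37 genes of these systems, chosen as the rows of the deposited expression table whose Ensembl ID maps to a fixed list of symbols, out of 37224 rows. They comprise 20 lysosome genes (10 hydrolases, 2 genes for activator proteins and progranulin, 5 genes of the lysosomal membrane and 3 subunits of its proton pump), 14 autophagy genes and the 3 transcription factor genes Tfeb, Tfe3 and Mitf. Each symbol matched 1 row, and 36 of the 37 reached an RPKM of at least 1 (reads per kilobase of gene, scaled to library depth) in some library. Mitf alone did not.

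The libraries came from mouse embryonic fibroblasts (cells grown from the connective tissue of embryos) of C57BL/6 background, labelled as primary cells, though a protocol also speaks of cell lines. Whether the null cells are 1 clone is not given. There were 4 groups: wild-type cells without arsenite, wild-type cells with low-dose sodium arsenite, Dot1L-/- cells (here called Dot1L null) without arsenite, and Dot1L null cells with low-dose sodium arsenite. Dot1L is a histone H3 methyltransferase. Exposure lasted 24 h. The protocol lists 5 and 10 µM beside 0 µM without saying which was sequenced, and both genotypes grew in the same serum-containing medium. Each group held 1 RNA-seq library, so every difference below is between libraries, with no replicate check and no test. In such bulk samples, fewer cells of a type and less RNA per cell cannot be told apart.

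Lysosomal hydrolases work at low pH, which the vacuolar ATPase (V-ATPase) keeps up by pumping protons across the lysosomal membrane. In autophagy a membrane grows around cargo and closes into an autophagosome. ULK1 and the BECN1 complexes start it, the ATG conjugation enzymes attach ATG8 proteins (the LC3 and GABARAP families) to its lipid, and cargo receptors such as optineurin and NBR1 bind those ATG8 proteins. TFEB, TFE3 and MITF bind an E-box motif in the promoters of many lysosome genes and raise their transcription, a binding site known as the CLEAR element.

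The core of that motif, CACGTG, which reads the same on both strands, was searched in the 250 bases upstream of the transcript starts in RefSeq (GRCm38.p6). The promoter table held 32 of the 37 genes, and a gene with several starts counted if any of them had the motif. It was found for 8 of 18 lysosome genes (44.4%), 2 of 11 autophagy genes (18.2%) and 0 of the 3 TFEB family genes. Of all 9256 genes with a promoter that passed the expression filter, 932 (10.1%) had it, and of all 27025 genes with a promoter entry 6.86% had it. The longer form TCACGTGA, which contains the core, was found for 4 lysosome genes (Ctsa, Ctsd, Mcoln1 and Atp6v1a, 22.2%) and 0 autophagy genes, against 1.87% of the genes that passed the filter. For 5 lysosome genes the matched stretch lay outside the annotated span of the gene, and these are printed to show the motif in its setting. Capitals mark the core or its longer form, and each sequence runs 5′ to 3′ on the strand of its gene.
Ctsd: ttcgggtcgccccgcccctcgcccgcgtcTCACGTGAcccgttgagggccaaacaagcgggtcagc
Mcoln1: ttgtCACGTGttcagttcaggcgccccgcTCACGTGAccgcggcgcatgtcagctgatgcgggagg
Lamp1: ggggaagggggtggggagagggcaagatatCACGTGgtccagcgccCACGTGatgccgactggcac
Glb1: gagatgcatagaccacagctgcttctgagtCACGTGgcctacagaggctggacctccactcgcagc
Gaa: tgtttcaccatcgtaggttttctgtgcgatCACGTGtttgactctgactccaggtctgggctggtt

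These stretches lie at chr7:142387890-142387955 (minus strand, Ctsd), chr8:3500444-3500509 (plus, Mcoln1), chr8:13159070-13159135 (plus, Lamp1), chr9:114401000-114401065 (plus, Glb1) and chr11:119267793-119267858 (plus, Gaa). Lamp1 had 4 copies of the core in its 250 upstream bases, Ctsd and Mcoln1 had 2 each, and Glb1 and Gaa had 1. A match is a description of these letters and not evidence of binding. The factors' binding was not measured in the data used here.

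Depth, recovered from the RPKM values, was 62972880 and 64699847 reads in the wild-type and null controls and 10833103 and 11879632 in the arsenite libraries, so the controls were 5.81 and 5.45 times deeper. Dot1l itself had an RPKM of 30.4 and 5.71 in wild type (control and arsenite) and 9.59 and 1.24 in the null, lower in the null but not absent. Which exons the null lacks is not given, so reads from the rest of the gene may remain. Fibroblast genes were present, with 8 of 11 markers past the filter and Vim, which encodes vimentin, at 702 to 1310 RPKM, though Thy1 was listed at 0 in all 4 libraries. Of these 8 markers, 6 were at least 2-fold lower and 1 higher with arsenite in wild type (median −2.50), and 3 and 1 in the null (−0.83). Of all genes past the filter, 35.7% and 12.8% were in wild type and 37.1% and 15.2% in the null. The higher one was S100a4 (688 to 4191 and 949 to 10957 RPKM). In the untreated null 3 were lower, among them Col3a1 (135 against 12.9 RPKM), and 1 higher, Col1a2 (64.2 against 206). Of all genes 14.7% and 6.45% were. Between the arsenite libraries 4 were higher in the null and 0 lower, beside 8.75% and 16.9%. Of 12 macrophage markers, a cell type rich in lysosomes, 3 passed the filter. Their summed RPKM was 22.0, 14.5, 2.98 and 6.46 in wild-type control, wild-type arsenite, null control and null arsenite, most of it from Cd14 in wild type (21.1 and 11.6), and Ptprc, Adgre1, Itgam and C1qa stayed below 0.1 RPKM. Lyz2 was higher in the null, at 0.0125, 0.729, 1.16 and 2.99 RPKM in the same order. So was Csf1r, which did not pass the filter, at 0.0683, 0.0189, 0.456 and 0.672. Both stood beside the higher Ctsz and lysosome median there. Fcer1g, which passed, was lower in the null, at 0.715, 1.73, 0.116 and 0.421 RPKM. Of the 3 that passed, Lyz2 was at least 2-fold higher in the untreated null and Cd14 at least 2-fold lower. The part of either marker list in the results was not tested.

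Direction with arsenite depended on how the libraries were scaled. RPKM values summed to 323290 in untreated wild type and 622139 after arsenite, and to 353283 and 662061 in the null. RPKM divides reads by gene length, so the sum is larger where more of the reads fall on short genes. Rescaling to equal sums (the TPM scale) therefore moves arsenite differences down by 0.94 in wild type and 0.91 in the null on the log2 scale, while centring on the median of all genes moves them up by 0.56 and 0.53. Differences are given as log2 of (RPKM + 1) over (RPKM + 1), which understates those of low genes, and a gene counts as higher or lower at 2-fold on that scale. Brackets after a fold hold the exact 95% interval of the read ratio, which covers counting error only. A direction is said to hold in all alternatives where it had the same sign in the main calculation and in all 7 alternatives.

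**Figure D1:**
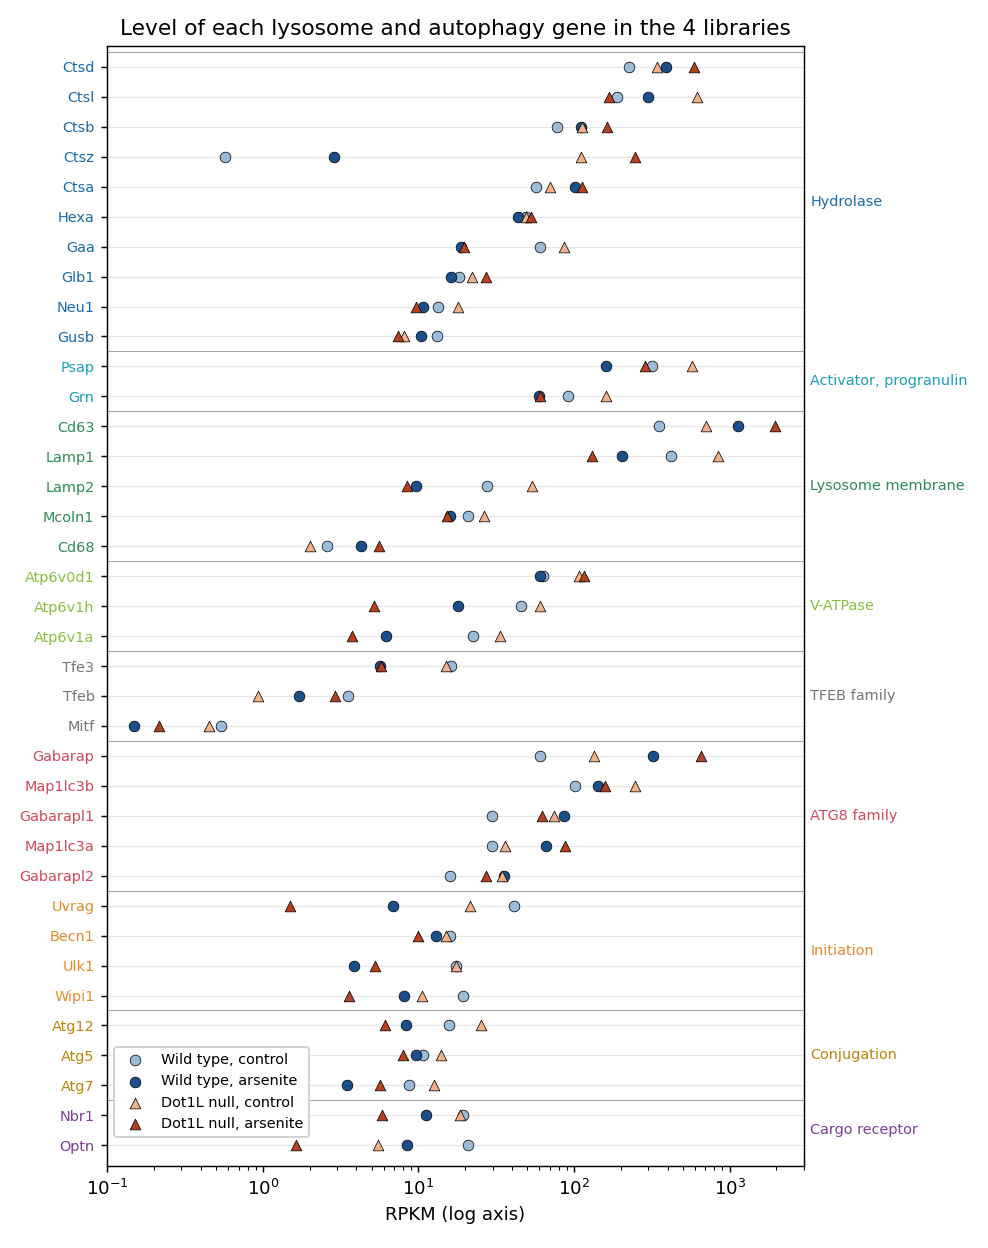
RPKM of each of the 37 genes (log axis) in the 4 libraries, 1 point per library, with circles for wild type and triangles for Dot1L null and darker colours for arsenite. Lysosome genes reach from 0.573 RPKM (Ctsz, wild-type control) to 1959 RPKM (Cd63, null with arsenite), and the Ctsz row shows the widest gap between genotypes.

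Lysosome genes were expressed above autophagy genes in all 4 libraries. The median RPKM of the 20 lysosome genes was 53.0 and 31.1 in wild type (control, then arsenite) and 78.3 and 56.9 in the null. For the 14 autophagy genes the medians were 19.3, 10.5, 19.9 and 7.05 in the same order. The ratio of these medians was lowest in the wild-type control (2.75) and highest in the null with arsenite (8.07). Summed levels behaved differently, because a few genes carry them. The summed RPKM of lysosome genes was 2068, 2684, 4002 and 3991, and that of autophagy genes 407, 723, 666 and 1040, a lysosome to autophagy ratio of 5.09, 3.71, 6.01 and 3.84. As a share of all RPKM in a library, lysosome genes made up 0.640%, 0.431%, 1.13% and 0.603%, and autophagy genes 0.126%, 0.116%, 0.189% and 0.157%. The lysosome share was thus smaller in both arsenite libraries even where the summed RPKM was larger.

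Arsenite was compared with control first in wild-type cells and then in Dot1L null cells, which share no library. In wild type, 6 of the 36 genes were at least 2-fold higher with arsenite and 11 at least 2-fold lower, where 12.8% of all 12588 genes past the filter were higher and 35.7% lower. In the null, 6 were higher and 15 lower, beside 15.2% and 37.1% of all genes. These shares were close to those of all genes. The median difference of the 36 genes was −0.31 in wild type and −0.75 in the null, against −0.56 and −0.53 for all genes. With the median of all genes set to 0, 12 were higher and 4 lower in wild type (21.6% and 19.4% of all genes) and 9 and 9 in the null (23.4% and 23.8%). Scaled to the 75th percentile, 9 and 4 (19.2% and 25.1%) and 9 and 9 (23.6% and 27.8%) were. On the TPM scale 2 were higher and 23 lower in wild type (6.36% and 61.8% of all genes) and 1 and 23 in the null (8.51% and 58.8%). Genes past 2-fold in both genotypes were 4 on the higher side (Gabarap, Cd63, Ctsz and Map1lc3a) and 11 on the lower side (8.40% and 26.3% of all genes), while 13 were within 2-fold in both.

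Set against each other, lysosome and autophagy genes differed little in their medians. The lysosome median was −0.23 in wild type and −0.44 in the null, and the autophagy median −0.50 and −0.88, so the lysosome genes lay 0.27 and 0.45 higher. With a trend on gene length removed, the wild-type gap turned to −0.13, and that of the null was 0.37. Both classes were split within themselves, from −1.70 to 1.70 among lysosome genes and from −2.42 to 2.39 among autophagy genes in wild type.

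**Figure D2:**
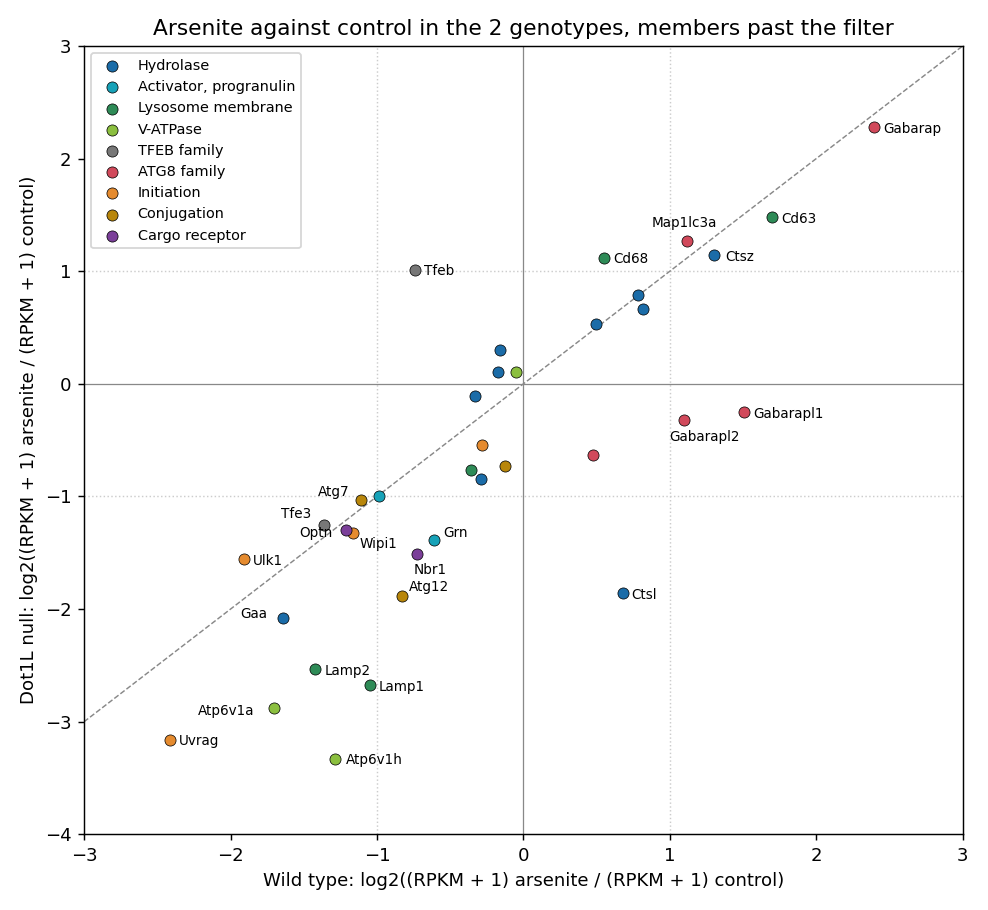
Log2 difference of arsenite against control in wild type (x axis) and Dot1L null (y axis) for the 36 genes past the filter, coloured by role, with 1 library per group. Dotted lines mark 2-fold and the dashed line equal differences; Gabarap (2.39 and 2.28) stands at the upper end, Uvrag (−2.42 and −3.16) at the lower end, and Ctsl, Gabarapl1, Gabarapl2 and Map1lc3b (not named in the plot) lie below the dashed line with opposite signs.

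Among the 10 hydrolases, 4 of the 5 cathepsin genes (Ctsa, Ctsb, Ctsd and Ctsz) were above control in both genotypes, and Ctsl in wild type. Ctsd, which encodes the aspartic protease cathepsin D, had RPKM values of 226 in untreated wild type and 390 after arsenite, and of 344 and 593 in the null. Ctsb, the cysteine protease cathepsin B, stood at 78.0 and 110.2, and at 113 and 163. Ctsa, the serine carboxypeptidase that also protects β-galactosidase and neuraminidase, stood at 56.9 and 101, and at 70.5 and 112. These 3 genes stayed under 2-fold, and all 3 were below control on the TPM scale. Parts of Ctsa and Ctsb share genome positions with neighbouring genes (Neurl2 and Pltp, and Fdft1), and whether the counting used strand is not given, so reads from the neighbours cannot be told apart.

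Ctsl, the cysteine protease cathepsin L, went opposite ways in the genotypes. Its RPKM was 188 in untreated wild type and 301 after arsenite, 1.60-fold higher (1.56 to 1.65), a direction that the TPM scale turned around. In the null it was 614 in the control and 168 with arsenite, 3.65-fold lower (3.54 to 3.77), a direction that every alternative kept. The null control was the high library, while the other 3 lay between 168 and 301.

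Enzymes that cut sugars from glycans and lipids mostly stayed within 2-fold of control. Gaa, the acid α-glucosidase that digests glycogen, was the exception, with 60.3 RPKM in untreated wild type and 18.7 after arsenite, and 86.0 and 19.6 in the null. It was 3.23-fold (3.03 to 3.45) and 4.38-fold (4.13 to 4.66) lower, a direction that all alternatives kept, and its low values were the 2 arsenite libraries. Hexa, the α subunit of β-hexosaminidase, stood at 49.2 and 43.6 RPKM in wild type and 49.2 and 52.9 in the null. Glb1 (β-galactosidase) stood at 18.3 and 16.3, and at 21.9 and 27.3; its span holds that of Tmppe, whose reads may be shared. Gusb (β-glucuronidase) stood at 13.3 and 10.4, and at 8.03 and 7.38. Neu1, the sialidase neuraminidase 1, stood at 13.4 and 10.8, and at 18.1 and 9.61. None of these 4 reached 2-fold with arsenite, and Neu1 in the null (−0.85) came nearest to it.

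Genes of the helper proteins were below control with arsenite, Grn in wild type not once the length trend was removed (0.031 in place of −0.61). Psap, which encodes the precursor of the saposins that present lipids to hydrolases, had 319 RPKM in untreated wild type and 161 after arsenite, and 576 and 288 in the null. The ratios were 1.98-fold (1.93 to 2.04) and 2.00-fold (1.96 to 2.05) lower, and the log2 differences of −0.98 and −0.999 fell just short of the threshold. Grn, which encodes progranulin, had 91.4 and 59.6 RPKM in wild type and 161 and 60.8 in the null, 1.53-fold (1.47 to 1.60) and 2.65-fold (2.54 to 2.76) lower. Both arsenite libraries had nearly the same Grn level, and the null control was the highest.

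Of the 5 membrane genes, Lamp1 and Lamp2 were past 2-fold lower in both genotypes, Cd63 past 2-fold higher in both and Cd68 in the null, and Mcoln1 within 2-fold. Lamp1, which encodes a main glycoprotein of the lysosomal membrane, had 421 RPKM in untreated wild type and 203 after arsenite, and 843 and 131 in the null. It was 2.07-fold (2.01 to 2.14) and 6.45-fold (6.23 to 6.67) lower. Its relative Lamp2, which also serves chaperone-mediated autophagy, had 27.7 and 9.69 RPKM in wild type and 53.6 and 8.42 in the null, 2.85-fold (2.68 to 3.04) and 6.36-fold (5.97 to 6.79) lower. For both genes the null was the higher control and the lower arsenite library, and all alternatives kept the direction in both genotypes, although against genes of its length of 9552 bases Lamp2 lay at −0.01 in wild type. Cd63, a tetraspanin of late endosomes, lysosomes and exosomes, went the other way, with 351 and 1141 RPKM in wild type and 703 and 1959 in the null. Its ratio was 3.25 (3.18 to 3.32) in wild type and 2.79 (2.74 to 2.83) in the null, above 1 in all alternatives, and with the length trend removed its log2 differences were 0.94 and 0.70 in place of 1.70 and 1.48. Cd68, a lysosomal glycoprotein typical of macrophages, was low in all libraries, at 2.59, 4.26, 2.02 and 5.56 RPKM. Mcoln1, a calcium channel of the lysosome, had 20.8 and 16.0 RPKM in wild type and 26.6 and 15.2 in the null.

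Subunits of the V-ATPase did not move together. The membrane subunit gene Atp6v0d1 was flat, at 62.9 and 60.8 RPKM in wild type and 107 and 115 in the null. Atp6v1a, the catalytic subunit of the cytosolic part, had 22.5 and 6.20 RPKM in wild type and 33.7 and 3.72 in the null, 3.62-fold (3.28 to 4.01) and 9.05-fold (8.02 to 10.3) lower. Atp6v1h, a regulatory subunit of that part, had 45.5 and 18.1, and 60.8 and 5.15, which made it 2.52-fold (2.27 to 2.80) and 11.8-fold (9.86 to 14.2) lower. Both were lower in both genotypes in all alternatives, and in the null neither came nearer than −1.71 (Atp6v1a) and −2.80 (Atp6v1h) on the log2 scale in any of them.

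Of the transcription factors of the family, Tfe3 was expressed at the level of the lower lysosome genes and Tfeb and Mitf below most of them. Tfeb had 3.52 RPKM in untreated wild type and 1.71 after arsenite, and 0.938 and 2.91 in the null. Read counts behind these values were 1257, 105, 344 and 196. Tfeb was 2.06-fold (1.69 to 2.54) lower with arsenite in wild type and 3.10-fold (2.59 to 3.71) higher in the null, the latter in every alternative that kept the gene; in wild type the length-adjusted difference was 0.38 in place of −0.74. Tfe3 was the most abundant of the 3, with 16.1 and 5.67 RPKM in wild type and 15.1 and 5.72 in the null, 2.84-fold (2.61 to 3.10) and 2.63-fold (2.43 to 2.86) lower. Against other genes of its length of 9261 bases it was not lower (0.039 and 0.11 with the trend removed). Mitf, known for its role in pigment cells, had 0.537, 0.149, 0.450 and 0.217 RPKM.

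On the RPKM scale the 5 ATG8 genes were above control with arsenite in wild type, and no other gene of the 14 was. In the null 2 of the 14 were, Gabarap and Map1lc3a. With the length trend removed, Becn1 (0.99 and 0.73) lay above Map1lc3a (0.48 and 0.63). Gabarap, whose protein acts late in autophagosome formation, had 60.0 RPKM in untreated wild type and 320 after arsenite, and 134 and 656 in the null. It was 5.32-fold (5.15 to 5.51) and 4.88-fold (4.77 to 4.99) higher, and stayed past 2-fold in both genotypes in all alternatives, the only gene of the 36 on the higher side to do so. Its rank by log2 difference was 332 of 12588 genes in wild type and 487 in the null. With the length trend removed its differences were 2.30 and 2.20, close to the unadjusted 2.39 and 2.28.

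Other ATG8 genes were higher with arsenite in wild type and were not in the null. Gabarapl1 had 29.6 and 86.0 RPKM in wild type, 2.91-fold higher (2.74 to 3.09), and 74.3 and 62.2 in the null, 1.19-fold lower (1.13 to 1.27). Gabarapl2, at 16.0 and 35.3 RPKM and at 34.3 and 27.3, showed the same shape; centred on the median of all genes, both genes lay above control in the null as well. Map1lc3b, which encodes the LC3B protein used as the common autophagosome marker, had 102 and 143 RPKM in wild type and 247 and 159 in the null. In these 3 genes the wild-type control was the lowest library. Map1lc3a, which encodes LC3A, was higher in both genotypes, at 29.9 and 66.2 and at 36.0 and 88.0 RPKM. Of the 5 genes, 4 were past 2-fold higher in wild type and 2 in the null (12.8% and 15.2% of all genes), and 0 were past 2-fold lower. Their median length was 1765 bases, against 3340 for all genes that passed. With the length trend removed, 3 were past 2-fold higher in wild type and 1 in the null, beside 15.8% and 20% of all genes. Map1lc3a then lay at 0.48 and 0.63 in place of 1.12 and 1.26. On the TPM scale Map1lc3b lay below control in wild type, and the other 4 kept their sign.

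Genes that start autophagy were lower. Uvrag, whose protein binds BECN1 in the lipid kinase complex, had 40.9 RPKM in untreated wild type and 6.85 after arsenite, and 21.3 and 1.49 in the null. It was 5.97-fold (5.27 to 6.79) and 14.3-fold (11.1 to 18.7) lower, past 2-fold in both genotypes in all alternatives, and ranked 625 and 381 from the bottom of 12588 genes. Ulk1, the kinase that starts the process, had 17.3 and 3.88 RPKM in wild type and 17.6 and 5.30 in the null, 4.47-fold (3.91 to 5.14) and 3.32-fold (2.97 to 3.72) lower. Wipi1, which binds the lipid that the complex makes, had 19.4 and 8.08, and 10.6 and 3.61. Becn1 itself was nearest to flat among the 4, at 16.0 and 13.0, and 15.0 and 9.98 RPKM, and against genes of its length of 7065 bases it lay at 0.99 and 0.73. All 4 genes are longer than the median gene, and without the length trend 1 of the 4, Uvrag, was past 2-fold lower in each genotype.

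Conjugation enzymes and cargo receptors were below control as well. With the length trend removed, Nbr1 and Atg5 lay above it in wild type (0.53 and 0.06), and Atg12 in the null (−1.61) alone was past 2-fold. Atg12, the ubiquitin-like partner of ATG5, had 15.7 and 8.37 RPKM in wild type and 25.3 and 6.11 in the null, 1.87-fold (1.63 to 2.15) and 4.14-fold (3.56 to 4.83) lower. Atg7, the activating enzyme of both conjugation systems, had 8.68 and 3.49, and 12.6 and 5.64, 2.49-fold (2.10 to 2.96) and 2.23-fold (1.96 to 2.54) lower. Atg5 stood at 10.7 and 9.69, and at 13.9 and 7.98 RPKM. Optn, which encodes the receptor optineurin, had 21.0 and 8.49 RPKM in wild type and 5.47 and 1.64 in the null, 2.47-fold (2.21 to 2.76) and 3.34-fold (2.64 to 4.29) lower. Nbr1 had 19.2 and 11.2, and 18.5 and 5.83, 1.71-fold (1.59 to 1.84) and 3.16-fold (2.89 to 3.48) lower. Optn was lower with arsenite in each genotype and lower in the null at each exposure.

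Untreated Dot1L null cells were next compared with untreated wild type, 2 libraries of nearly equal depth. Here 7 of the 36 genes were at least 2-fold higher in the null and 2 at least 2-fold lower, where 6.45% of all genes were higher and 14.7% lower. The median of the 36 genes was 0.45 and that of all genes −0.17. Lysosome genes had a median of 0.54, with 18 of 20 above 0, and autophagy genes a median of 0.31, with 9 of 14 above 0. Of all 12588 genes past the filter, 4976 were above 0. Of the 36 genes, 25 were higher in the null in all 8 calculations. Lower in every calculation that kept the gene were 6 (Tfeb entered 7). The same counts over all genes are not given here.

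**Figure D3:**
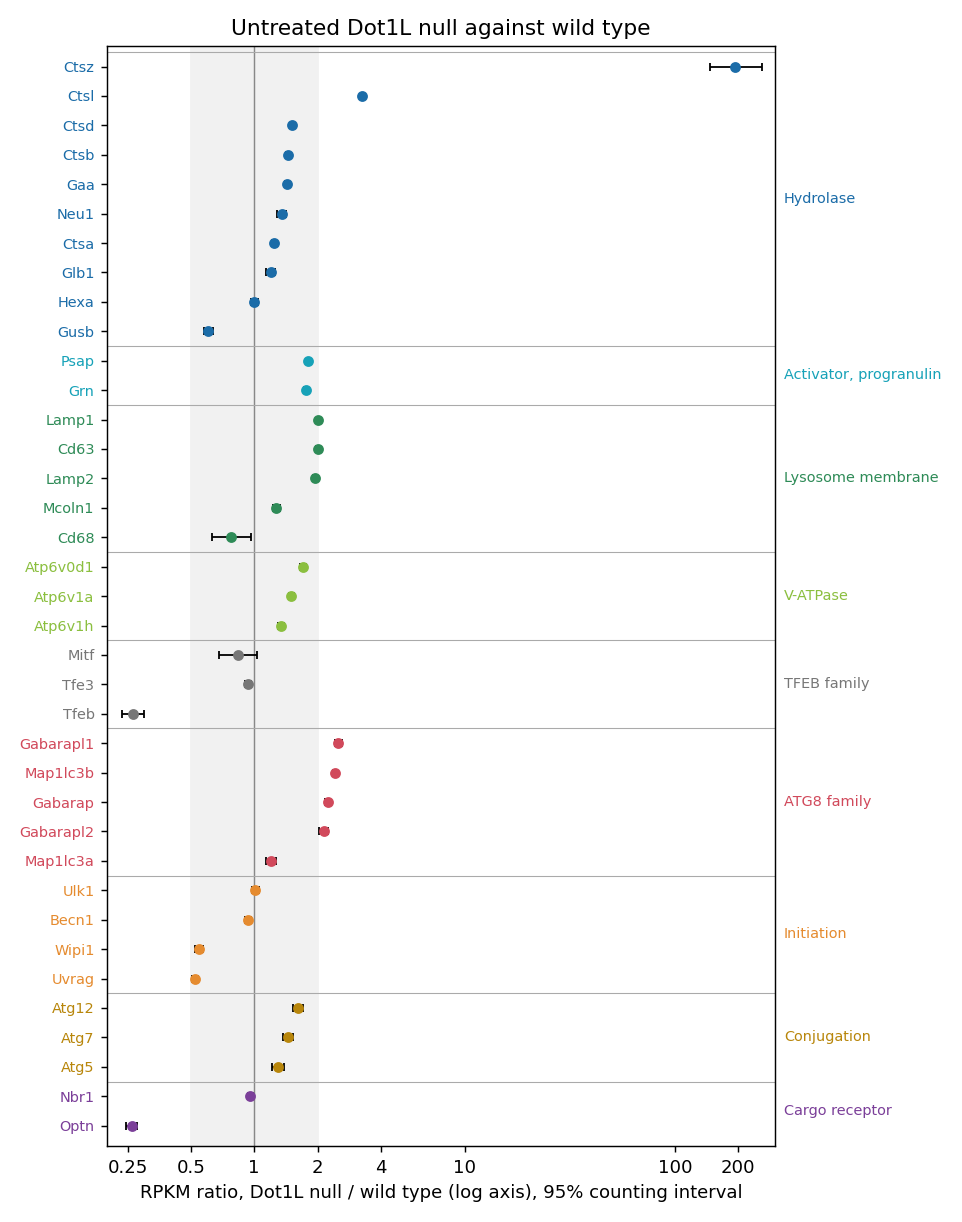
RPKM ratio of untreated Dot1L null to untreated wild type (log axis) for the 37 genes, coloured by role, with the 95% counting interval (narrower than the point for most genes) and the range within 2-fold shaded. Ctsz lies at 193, Ctsl and 4 of the 5 ATG8 genes beyond 2, and Optn and Tfeb below 0.5.

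Ctsz, which encodes the carboxypeptidase cathepsin Z, was the widest difference between the genotypes among these genes. Wild type held 0.573 RPKM untreated and 2.88 after arsenite, and the null 111 and 245, from 52, 45, 10322 and 4195 reads. Both null values lay above both wild-type values, and how many of all genes did so is not given here. The null was 193-fold higher (147 to 259) without arsenite and 85.0-fold higher (63.4 to 117) with it, a fold singled out after the values were seen, and Ctsz ranked 5 and 3 from the top of all 12588 genes on the log2 scale. The gene (ENSMUSG00000016256) lies at chr2:174427494-174439039 in GRCm38 and shares 12 bases with its neighbour Nelfcd. Ctsl was 3.27-fold (3.22 to 3.32) higher in the null control, and Lamp1 and Cd63 both stood at 2.00-fold, the first just inside and the second just outside the 2-fold rule on the log2 scale (1.0002 and 0.9993).

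Of the 14 autophagy genes, 4 were at least 2-fold higher in the untreated null (6.45% of all genes), all of them ATG8 genes. Gabarapl1 was 2.51-fold (2.41 to 2.61), Map1lc3b 2.41-fold (2.36 to 2.47), Gabarap 2.24-fold (2.18 to 2.30) and Gabarapl2 2.14-fold (2.04 to 2.25) higher. The other ATG8 gene, Map1lc3a, was 1.20-fold (1.14 to 1.27) higher. Optn was 3.83-fold (3.60 to 4.07) and Tfeb 3.75-fold (3.33 to 4.24) lower. Uvrag and Wipi1 were 1.91-fold and 1.83-fold lower. The library with the lowest Tfeb was the one with the highest lysosome median. Tfe3 and Mitf were 1.07-fold (1.04 to 1.10) and 1.19-fold (0.972 to 1.46) lower.

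Between the 2 arsenite libraries, the null had 2 of the 36 genes at least 2-fold higher (Ctsz and Gabarap) and 3 lower (Optn, Uvrag and Atp6v1h), where 8.75% and 16.9% of all genes were. The median was 0.02, against −0.28 for all genes; lysosome genes lay at 0.11 and autophagy genes at −0.35. Of the 27 genes above wild type in the untreated null, 16 were above it here and 11 below. How all genes split in this way is not given here. Psap (161 and 288 RPKM), Ctsd, Ctsb, Cd63 and Atp6v0d1 lay about as far apart as without arsenite. Grn was at 59.6 and 60.8 RPKM, Gaa at 18.7 and 19.6, and Mcoln1 at 16.0 and 15.2.

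Subtracting the wild-type arsenite difference from that of the null gave at least 1 for 1 gene (Tfeb, 1.75) and at most −1 for 9, beside 12.1% and 12.8% of all genes. The 9 were Ctsl (−2.54), Atp6v1h (−2.04), Gabarapl1 (−1.76), Lamp1 (−1.63), Gabarapl2 (−1.41), Atp6v1a (−1.17), Lamp2 (−1.11), Map1lc3b (−1.11) and Atg12 (−1.05). Without the length trend the counts were also 1 and 9 (11.4% and 12.2% of all genes). This difference uses all 4 libraries and was not tested against replicate error. All 9 genes had a higher value in the null control than in the wild-type control, and those 2 libraries enter both the genotype comparison and this difference, so they are not separate evidence. Hmox1, a gene known to respond to arsenite, had 82.4 and 416 RPKM in wild type and 405 and 618 in the null.

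Gene length went with the arsenite difference, among these genes and among all genes. Over the 36 genes the Spearman correlation of the log2 difference with length was −0.66 in wild type and −0.44 in the null; over all genes with a usable length it was −0.56 and −0.49. The points share their libraries, and genes are not replicates. Lysosome genes had a median length of 2632 bases and autophagy genes of 2965, against 3340 for all genes that passed. Measured against genes of their own length, 6 of the 36 were at least 2-fold higher and 2 lower in wild type, and 5 and 8 in the null. Of all genes with a usable length 15.8% and 15.4% were in wild type, and 20% and 21% in the null. In wild type the 2 lower ones were Uvrag (−1.79) and Atp6v1h (−1.30). The higher ones were Gabarap, Gabarapl1 and Gabarapl2 (2.30, 1.35 and 1.27) and the cathepsin genes Ctsa, Ctsb and Ctsd (1.76, 1.45 and 1.05). What set the length trend was not tested.

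**Figure D4:**
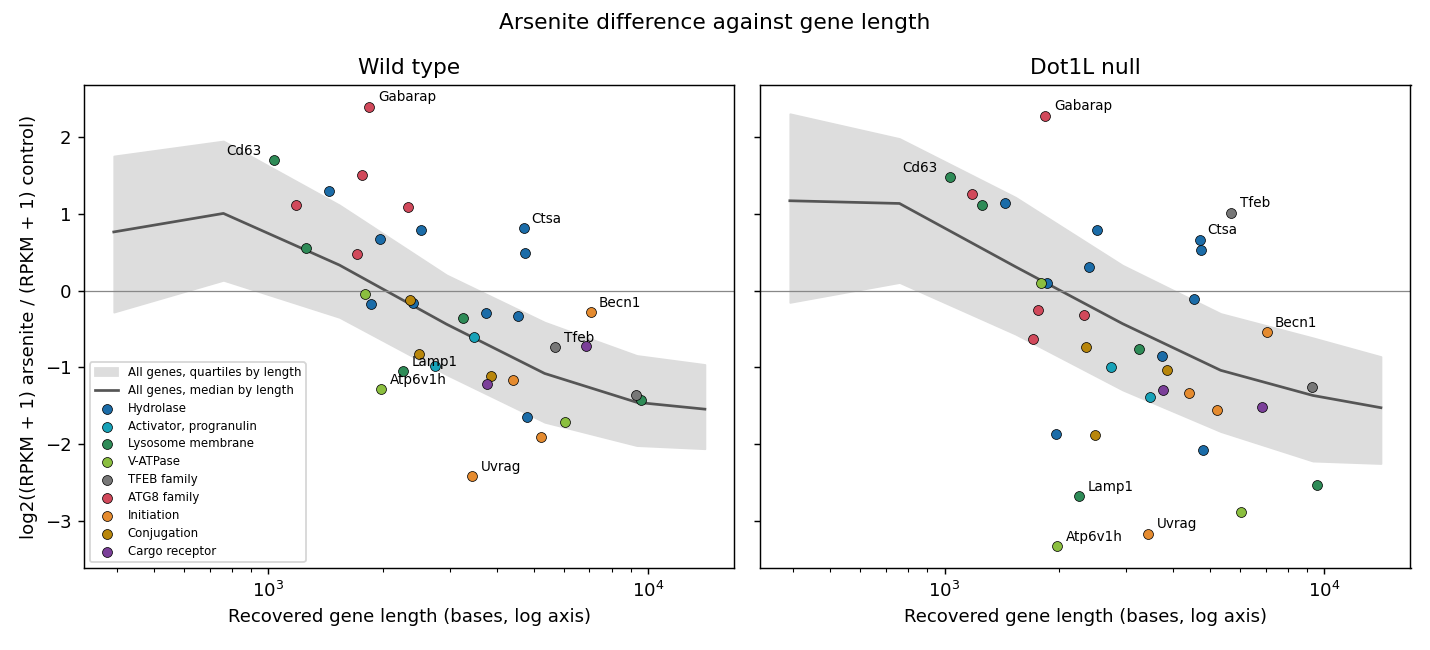
Log2 difference of arsenite against control (y axis) by recovered gene length (x axis, log) in wild type (left) and Dot1L null (right), 1 point per gene past the filter, with the median and quartiles of all genes by length in grey. Gabarap and Ctsa lie above the grey band in both genotypes, and Uvrag and Atp6v1h below it.

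Genes with the E-box core upstream did not share a direction with arsenite. The 8 lysosome genes with it had a median log2 difference of −0.26 in wild type, from −1.70 (Atp6v1a) to 0.82 (Ctsa), and of −1.31 in the null, from −2.88 to 0.79. The 10 without it had medians of −0.23 and −0.0022. With the length trend removed the medians were 0.13 and −0.64 for those with the core and 0.01 and 0.01 for those without. Of the 5 printed above, Ctsd was higher with arsenite, Lamp1, Gaa and Mcoln1 were lower, and Glb1 was lower in wild type (−0.16) and higher in the null (0.30).

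Further genes of the same systems were taken from lists drawn up by function, and their counts stand beside the same shares of all genes, 12.8% higher and 35.7% lower in wild type and 15.2% and 37.1% in the null. Of 59 other lysosome genes that passed the filter (62 listed), 5 were at least 2-fold higher with arsenite and 20 lower in wild type, and 7 and 25 in the null, with medians of −0.29 and −0.61, near those shares. Gm2a, which encodes the activator of ganglioside breakdown, was highest, at 4.71 and 16.9 RPKM in wild type and 4.04 and 24.3 in the null (control, then arsenite). The V-ATPase genes Atp6v1f (61.7 to 231, and 98.9 to 284) and Atp6v0b (54.8 to 166, and 72.1 to 162) were next. Asah1, the acid ceramidase, was lowest, at 50.9 and 12.2 RPKM and at 82.9 and 3.90, followed by Ids, the iduronate sulfatase, at 12.5 and 1.03 and at 12.0 and 0.792. Igf2r, the receptor that sorts hydrolases by mannose 6-phosphate, had 3.42 and 0.440 RPKM in wild type and 54.0 and 3.08 in the null. In the untreated genotype comparison 7 of the 59 were higher in the null and 1 lower (median 0.15). Of all genes 6.45% were higher and 14.7% lower there (median −0.17).

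Of 36 other autophagy genes that passed (37 listed), 1 was higher and 18 lower with arsenite in wild type, and 1 and 22 in the null. Their medians were −0.96 and −1.25, and more of them were lower than among all genes, a difference that was not tested. With the length trend removed, 5 were higher and 4 lower in wild type, where 15.8% and 15.4% of all genes were. In the null 6 were higher and 13 lower, beside 20% and 21%, and the adjusted medians were −0.26 and −0.29. Before that adjustment the higher one was Vamp8, a membrane fusion protein of autophagosomes and lysosomes. It stood at 10.8 and 73.8 RPKM in wild type and 25.2 and 141 in the null. Atg101 (33.1 and 56.0, 20.3 and 28.4) and Atg10 (1.20 and 2.18, 2.68 and 4.19) followed it without reaching 2-fold. Epg5, Atg2b and Ambra1 were the lowest, with Epg5 at 5.78 and 0.534 RPKM in wild type and 8.12 and 0.522 in the null. Between the untreated genotypes 3 of the 36 were at least 2-fold higher in the null and 2 lower (median −0.13). Of all genes 6.45% and 14.7% were. The higher ones were Sqstm1, Wdr45 and Vamp8 (log2 differences of 1.38, 1.24 and 1.15), and the lower ones Vmp1 and Tecpr1 (−2.21 and −1.10). Among 13 genes of the growth-sensing mTORC1 machinery at the lysosome, 4 were higher and 6 lower in wild type, and 2 and 8 in the null. The highest were the scaffold genes Lamtor4 (23.5 to 84.8 and 26.9 to 135 RPKM), Lamtor2 (20.3 to 66.4 and 23.3 to 108) and Lamtor1 (74.9 to 169 and 96.7 to 169), genes of 1176, 609 and 1184 bases. The lowest were the GTPase gene Rraga (44.3 to 15.2 and 56.95 to 2.93), Flcn (16.97 to 2.88 and 34.6 to 3.16) and Rptor (8.87 to 1.56 and 9.51 to 1.07).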

How the data were processed

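The authors deposited RPKM values for 37224 Ensembl genes in 4 libraries. Per the submitters' processing notes, TopHat, HTSeq, Bowtie and deepTools were used with mm10; their versions, the annotation and the strand setting were not given in the sources used here. Ribosomal RNA was depleted, per the labels' protocols, while the molecule label reads polyA. The 2 H3K27ac libraries were not analysed here.

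Symbols were found for 35449 IDs. Reads were recovered from whole-read steps: depth as the most frequent inverse of RPKM times length over small RNA genes, and length as the shortest that made all values of a gene whole (relative tolerance 1e-12; found for 21617 of 21617 genes above 0). Of 501 small RNA genes with an annotated span, 348 lengths equalled it. Recovered reads served for intervals (Clopper-Pearson, scipy 1.17.1) and length only. They made up 97.9% to 98.3% of the depth.

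Differences are log2((RPKM + 1)/(RPKM + 1)) over 12588 genes that reached an RPKM of 1 in some library. The length trend is a lowess fit (statsmodels 0.14.6, span 0.3) over 12155 genes of at least 200 bases. The calculations were tested on artificial counts. With 1 library per group no test was made. Members, roles and lists were chosen with earlier results of these data known. All members are named; folds with arsenite are given for the 2 of each role with the largest difference, and 3 highest and 3 lowest genes for each further list. Folds of Cd63 with arsenite and all genotype folds were added after their values were seen. Annotated spans of 16 of the 37 members overlap another gene.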

Additional observations from a re-analysis of the deposited data

Results flagged for a closer look

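In 5 genes the arsenite and control libraries differed in opposite directions in the genotypes, with read-ratio intervals that left out 1 in both and effects at least 2-fold apart. How many of all genes met the same rule is not given here, so the count is not a trait of these genes. The difference of the effects, null minus wild type on the log2 scale, was −2.54 for Ctsl, 1.75 for Tfeb, −1.11 for Map1lc3b, −1.76 for Gabarapl1 and −1.41 for Gabarapl2. It was not tested, since each group held 1 library. For Ctsl, Map1lc3b, Gabarapl1 and Gabarapl2 the untreated null library was above the untreated wild type (3.27-fold, 2.41-fold, 2.51-fold and 2.14-fold), and for Tfeb it was below (3.75-fold). Each of the 5 lost the opposite directions in some alternative. Centred on the median of all genes or scaled to the 75th percentile, Gabarapl1 and Gabarapl2 were above control in both genotypes. On the TPM scale Ctsl (−0.26) and Map1lc3b (−0.46) were below control in wild type as in the null, and with the length trend removed Tfeb was above it in both (0.38 and 2.12).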

How the results depend on the processing

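No paired analysis was possible because each group held 1 library. The TPM scale was added after the data were seen; the other 6 alternatives were planned. A median is said to move by over 0.1 and a count by over 1.5 times. Without a filter no median or count of these genes did. With an RPKM of at least 5 Tfeb had no value, so genes lower in the untreated null went from 2 to 1 and those more positive in the null from 1 to 0. The median of all genes with arsenite in wild type, −0.56, was −0.054 without a filter and −0.64 at an RPKM of 5. With a pseudocount of 0.1 the median difference of the arsenite effects moved from −0.19 to −0.33. The numbers past 2-fold with arsenite, higher then lower, 6 and 11 in wild type and 6 and 15 in the null, became 12 and 4, and 9 and 9, after median centring. They became 9 and 4, and 9 and 9, after scaling to the 75th percentile. Without the length trend they were 6 and 2, and 5 and 8, and on the TPM scale 2 and 23, and 1 and 23. The median of the genes with arsenite, −0.31 in wild type and −0.75 in the null, was 0.25 and −0.22 after centring, 0.16 and −0.17 after 75th percentile scaling, 0.056 and −0.20 with length taken out and −1.23 and −1.65 on the TPM scale. For null against wild type without arsenite it was 0.45, and 0.62, 0.59, 0.68 and 0.34 in that order; with arsenite it was 0.02, and 0.30, 0.27, 0.35 and −0.065. Higher in the null with arsenite were 2 genes, and 5, 5, 5 and 1 in that order. Of all genes 8.75% were, and 12.8%, 12.9%, 12.5% and 9.30%. In the untreated null 7 higher and 2 lower became 11 and 1 without the length trend. The shares of all genes were 6.45% and 14.7%, and 9.22% and 10.9% without it. Lysosome minus autophagy in wild type went from 0.27 to −0.13 without the length trend. Without it Tfe3 turned from −1.36 to 0.039 (wild type) and from −1.26 to 0.11 (null). The cause was not tested. Of 17 and 21 genes past 2-fold with arsenite, 2 and 9 were so in all 8 calculations. Arsenite depth limits low genes most: Mitf had 10 and 16 reads.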
